A study of Mus musculus with 21 samples.

Results

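Granulocyte-monocyte progenitors (GMPs) with intermediate CD62L (CD62L-int GMPs) were compared with GMPs with high CD62L (CD62L-high GMPs), the second step of CD62L gain within mouse GMPs. The comparison held 3 CD62L-int and 3 CD62L-high GMP libraries, chosen by their sample labels, out of 21 RNA-seq libraries in the series. The labels call the CD62L-int GMPs CD62L-low GMPs. All libraries came from C57/B6 mice, young adults according to the study, with no treatment named in the labels. Bone marrow mononuclear cells were sorted by flow cytometry, and GMPs were gated as lineage-negative, SCA-1-negative, C-KIT-positive cells that carry CD16/32 and CD34. According to the study, both gates took the ends of the intermediate to high CD62L range that most GMPs span, so the cells between the gates are in neither group. Bulk GMPs, sorted without regard to CD62L, and CD62L-neg GMPs, those with the least CD62L, served as reference groups of 3 libraries each. Whether the 3 libraries of a group came from separate mice is not stated, so p-values measure the spread between these libraries, which may be technical.

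CD62L is an adhesion molecule on the surface of leukocytes that lets them roll along vessel walls. GMPs give rise to neutrophils and to monocytes. In these progenitors Gfi1 and Cebpe encode transcription factors required for granulocyte development, Irf8 and Klf4 encode transcription factors of the monocyte fate, and Csf1r encodes the receptor for macrophage colony-stimulating factor. The comparison addresses whether GMPs that differ in CD62L also differ in such genes.

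Total counts of the 6 libraries ran from 11360760 to 15263573. CD62L-high GMP replicate 1 stood apart from the other libraries. Of its counts, 41.09% lay on 3 gene models of ribosomal RNA (Gm23935, Gm26917, Gm42418), against 25.12% to 29.51% in the other 5, and protein-coding genes took 52.21% against 63.74% to 67.37%. On the first principal component of the 9 CD62L-int, CD62L-high and bulk GMP libraries, with 39.8% of the variance, it lay at 47.4 and the other 8 between -13.1 and 6.4. For many results, though not for all, the value without it is given as well. Of 16 T and NK cell marker genes none passed the filter on low counts, and their summed level was 0.201 to 1.66 CPM in the 6 libraries. CPM are counts scaled to library size with the TMM method, are not divided by gene length, and are compared here between libraries and not between genes.

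The surface genes of the sort were measured first. Kit, which encodes C-KIT, was at 230.1, 193.3 and 190.9 CPM in CD62L-int GMP replicates 1, 2 and 3 and at 146.6, 139.2 and 109.7 CPM in the CD62L-high GMPs. All CD62L-high libraries lay below all CD62L-int libraries. The log2 difference was -0.64 (SE 0.13, edgeR quasi-likelihood F test, Benjamini-Hochberg adjusted over 13192 genes, adjusted p = 0.0189), which is under 2-fold. Cd34 and Fcgr3, which encode CD34 and CD16, differed by -0.15 and -0.06 on the log2 scale (edgeR adjusted p = 0.586 and 0.847).

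Ly6c2, which encodes the monocyte and granulocyte antigen Ly6C, was at 581.6, 527.9 and 580.3 CPM in CD62L-int and at 1075, 663.9 and 726.4 CPM in CD62L-high GMPs. Replicate 1 was the highest CD62L-high library. The log2 difference of Ly6c2 was 0.54 (edgeR adjusted p = 0.0727), and 0.31 without that replicate (adjusted p = 0.0145). Fcgr2b, which encodes CD32, and Itgam, which encodes CD11b, differed by 0.16 and -0.89 on the log2 scale (edgeR adjusted p = 0.643 and 0.244), and Ly6c1 was below 3 CPM in every library. Ly6a, Il7r and Ly6g, which encode SCA-1, the interleukin-7 receptor and the neutrophil antigen Ly6G, were at 0 to 0.66 CPM in the 6 libraries and were not tested.

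Among all genes tested, 57 were higher in CD62L-high than in CD62L-int GMPs (0.432% of 13192) and 109 were lower (0.826%), where the adjusted p had to be under 0.05 and the change larger than 2-fold. Genes that met both thresholds are termed called, and of these 54 and 108 are protein-coding. With the adjusted p alone, 234 genes were higher (1.77%) and 175 lower (1.33%). These shares of all genes are the measure for the counts of list members given below. The 3 and 3 libraries did not overlap for 1316 genes higher (9.98%) and 1275 genes lower (9.66%), all called genes included. Without CD62L-high GMP replicate 1, 51 genes were called higher (0.374% of 13648) and 132 lower (0.967%). Of these, 35 and 95 were called with it as well, and no called gene changed sign. Without CD62L-int GMP replicate 1, 36 genes were called higher and 53 lower, and without CD62L-int GMP replicate 3, 60 genes were called lower.

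**Figure D1:**
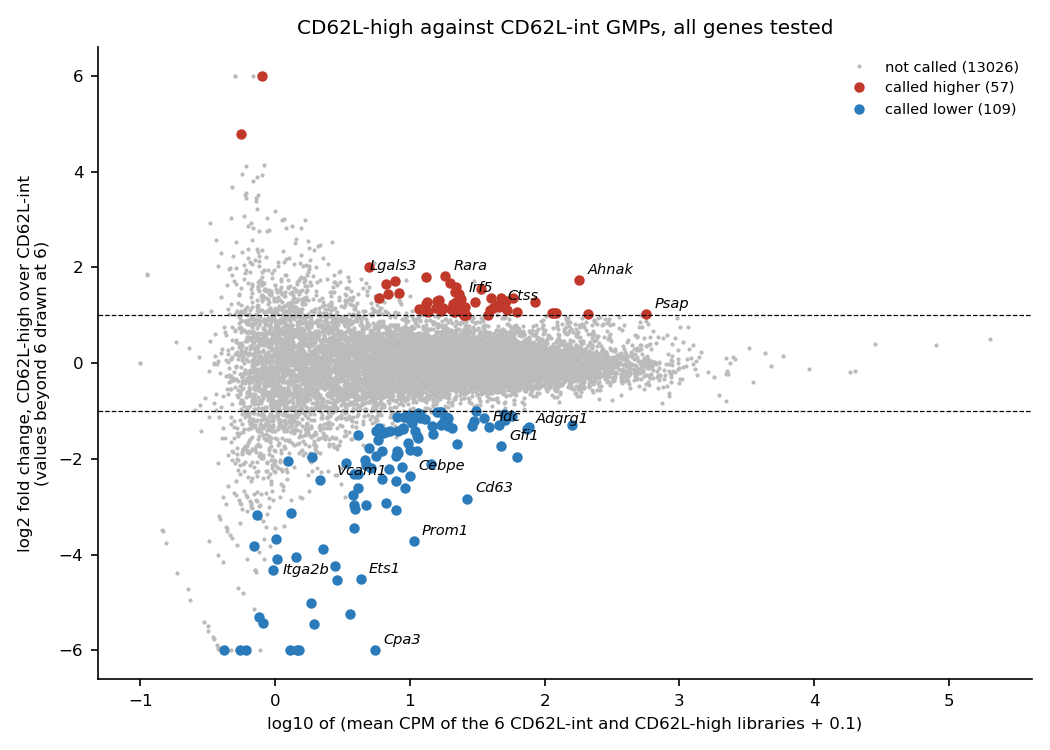
Each point is 1 of 13192 genes. The x axis is the log10 mean CPM of the 6 libraries and the y axis the log2 fold change of CD62L-high over CD62L-int GMPs, with values beyond 6 drawn at 6. Red and blue points are the 57 genes called higher and the 109 called lower, and the dashed lines mark a 2-fold change. Ahnak, at 1.73, lies far to the right among the red points, and Cpa3, at 0 in every CD62L-high library, lies at the lower edge.

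Of 5 genes related to neutrophils that the study singles out from earlier work, Gfi1, Cebpe and Vcam1 fell more than 2-fold, Rgcc was lower by less than 2-fold, and Cd81 did not pass the test. Gfi1 (chr5:107716657-107726036, GRCm38, minus strand), which encodes a zinc finger repressor, was at 68.6, 70.2 and 79.3 CPM in CD62L-int and at 15.97, 25.6 and 23.6 CPM in CD62L-high GMPs. The groups stood far apart. The log2 fold change was -1.74 (SE 0.17, edgeR adjusted p = 0.000147), and -1.56 without CD62L-high GMP replicate 1. Bulk GMPs lay between them at 49.4 ± 3.29 CPM (SD, n = 3).

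Cebpe, which encodes C/EBP epsilon, a factor of late granulocyte maturation, was at 15.3, 13.6 and 21.1 CPM in CD62L-int and at 0.795, 1.86 and 6.90 CPM in CD62L-high GMPs. The CD62L-high libraries were all lower but spread widely, with replicate 3 the highest. The log2 fold change was -2.36 (SE 0.50, edgeR adjusted p = 0.021). The adjusted p of Cebpe rose to 0.073 without CD62L-int GMP replicate 1, to 0.0964 without CD62L-int GMP replicate 3 and to 0.0642 without CD62L-high GMP replicate 2. Vcam1, which encodes a ligand of integrin VLA-4, was at 13.8, 10.7 and 15.1 CPM in CD62L-int and at 1.43, 2.46 and 3.22 CPM in CD62L-high GMPs. These groups were well separated, and the log2 fold change of -2.47 (SE 0.34, edgeR adjusted p = 0.00147) was called without any single library. Rgcc, a regulator of the cell cycle, was at 64.65 ± 11.97 CPM and 37.0 ± 3.17 CPM (SD, n = 3), a log2 difference of -0.80 (edgeR adjusted p = 0.00989). Cd81, a tetraspanin, was at 47.7, 28.8 and 45.3 CPM in CD62L-int and at 32.0, 28.1 and 29.0 CPM in CD62L-high GMPs. These ranges overlapped (log2 difference -0.45, edgeR adjusted p = 0.269).

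The 4 monocyte genes that the study singles out were each higher in CD62L-high GMPs by less than 2-fold. Irf8 (chr8:120736358-120756694) was at 417.6, 441.1 and 414.8 CPM in CD62L-int and at 766.1, 749.3 and 720.3 CPM in CD62L-high GMPs. The spread within either group was small beside the gap. The log2 difference was 0.81 (SE 0.10, edgeR adjusted p = 0.000709). Csf1r was at 159.5, 180.2 and 153.3 CPM in CD62L-int and at 335.3, 286.0 and 279.9 CPM in CD62L-high GMPs, with no overlap (log2 difference 0.87, edgeR adjusted p = 0.00127).

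Klf4 was at 71.6, 110.5 and 117.3 CPM in CD62L-int and at 223.5, 181.5 and 157.9 CPM in CD62L-high GMPs. The groups did not overlap, although each was broad. The log2 difference was 0.91 (SE 0.18, edgeR adjusted p = 0.0123), and Klf4 passed 2-fold without CD62L-int GMP replicate 3 (1.04) or CD62L-high GMP replicate 3 (1.02). Without CD62L-high GMP replicate 1, the library with the highest Klf4, the log2 difference was 0.77. Ly86, which encodes MD-1, a partner of the toll-like receptor homolog CD180, was at 51.4 ± 3.05 CPM and 87.4 ± 16.1 CPM (SD, n = 3, log2 difference 0.76, edgeR adjusted p = 0.00957). The log2 difference of Ly86 was 0.61 without CD62L-high GMP replicate 1. In bulk libraries, fewer cells that express a gene and less RNA of it per cell cannot be told apart. Among the genes of the naming rule, exons of Gfi1, Csf1r, Vcam1, Cd81, Cd34 and Fcgr2b, and of the later named Fn1, Irf5, Cx3cr1, Prom1, Angpt1, Vat1, Lzts2, Far2, Ikzf2 and Rbm47, overlap a gene on the other strand. Whether the counting used strand is not given in the sources used here.

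**Figure D2:**
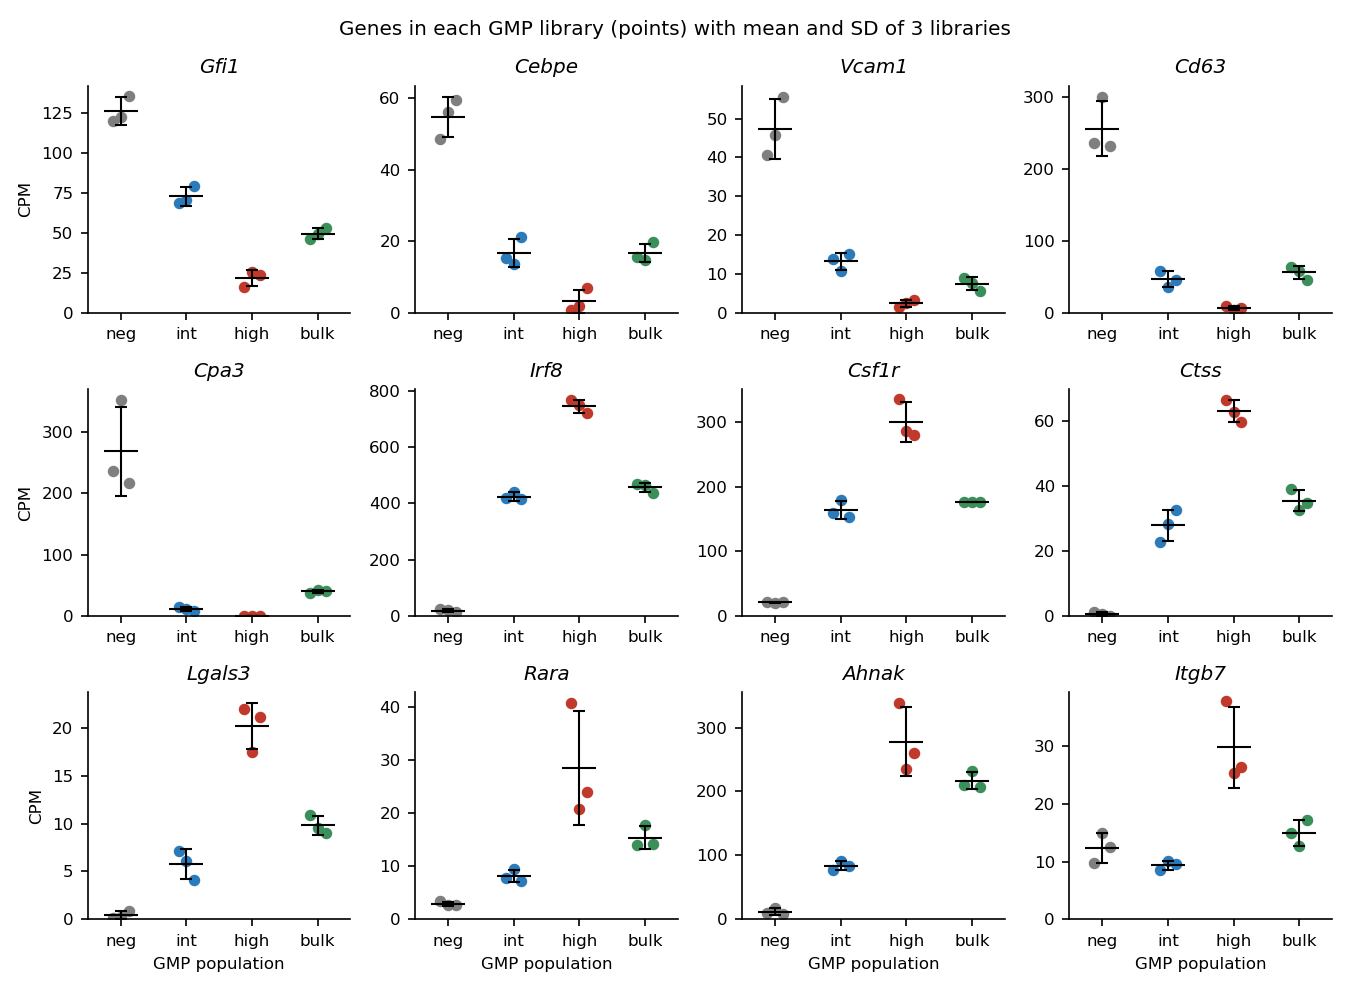
CPM of 12 genes (y axes, from 0) in the CD62L-neg, CD62L-int, CD62L-high and bulk GMP libraries (x axes). Points are libraries, and bars are the mean and SD of 3 libraries. Gfi1, Cebpe, Vcam1, Cd63 and Cpa3 are lower in CD62L-high than in CD62L-int GMPs, and Irf8, Csf1r, Ctss, Lgals3, Rara, Ahnak and Itgb7 are higher.

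Most genes of the wider list of monocytes and macrophages had higher levels in CD62L-high GMPs. Of its 34 members tested, 8 were called higher and 0 lower, against 0.432% and 0.826% of all genes. At the adjusted p alone 19 were higher, against 1.77%. A positive log2 fold change was found for 32, and the libraries of 26 did not overlap with CD62L-high GMPs above, against 9.98% of all genes. The median log2 fold change was 0.84, against -0.01 over all genes tested. The study's 4 monocyte genes are members of this list. Like the other lists, it was written with earlier results of these data known, so its counts describe its members and are no independent test. The summed level of the list was 3963, 4318 and 4079 CPM in CD62L-int GMP replicates 1, 2 and 3 and 7552, 6565 and 6689 CPM in CD62L-high GMPs. All CD62L-high libraries exceeded all CD62L-int libraries, and the bulk GMPs, with 4426 to 4522 CPM, lay just above the latter. Without CD62L-high GMP replicate 1, 7 members were called and the median was 0.77.

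Ahnak, which encodes a very large scaffold protein, was at 77.6, 90.6 and 83.4 CPM in CD62L-int and at 338.5, 235.4 and 260.7 CPM in CD62L-high GMPs. Every CD62L-high library lay far above every CD62L-int library (log2 fold change 1.73, SE 0.14, edgeR adjusted p = 5.23e-05). Lgals3, which encodes galectin-3, a lectin of macrophages, was at 7.14, 6.12 and 4.09 CPM and at 22.0, 17.5 and 21.2 CPM. It was likewise separated (log2 fold change 1.81, SE 0.25, edgeR adjusted p = 0.00154). Ctss, which encodes the lysosomal protease cathepsin S, was at 22.9, 28.2 and 32.5 CPM in CD62L-int and at 66.6, 62.8 and 59.9 CPM in CD62L-high GMPs (log2 fold change 1.18, SE 0.15, edgeR adjusted p = 0.0012). Tgfbi, a matrix protein induced by TGF-beta, rose by 1.36, Fn1, which encodes fibronectin, by 1.30, and Pld4, an endolysosomal nuclease, by 1.28 on the log2 scale (edgeR adjusted p = 0.00285, 0.00126 and 0.00227). These 6 genes were called whichever single library was left out.

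Psap, which encodes the precursor of the saposins of sphingolipid breakdown, was at 364.2, 393.3 and 365.4 CPM in CD62L-int and at 857.8, 683.6 and 737.2 CPM in CD62L-high GMPs. Its log2 fold change of 1.02 (edgeR adjusted p = 0.000327) was 0.93, under 2-fold, without CD62L-high GMP replicate 1. Cx3cr1, the fractalkine receptor, rose from 12.6 ± 1.49 to 27.4 ± 4.58 CPM (SD, n = 3, log2 fold change 1.13, edgeR adjusted p = 0.0116), with an adjusted p of 0.0542 and 0.0651 without CD62L-int GMP replicate 1 or 3. Members just under 2-fold, named after their values were seen, included Ccr2, the chemokine receptor with which monocytes leave the marrow (log2 difference 0.98, edgeR adjusted p = 0.00617), and F13a1, a coagulation factor subunit made by monocytes (0.75, edgeR adjusted p = 0.00136). Of the macrophage markers, also named after their values were seen, Adgre1, which encodes F4/80, was at 8.20 ± 1.13 and 15.4 ± 4.14 CPM (SD, n = 3) with no overlap (log2 difference 0.91, edgeR adjusted p = 0.0678), and Cd68 was at 18.8 ± 3.61 and 32.0 ± 4.43 CPM (SD, n = 3, log2 difference 0.77, edgeR adjusted p = 0.0409, and 0.052 without CD62L-high GMP replicate 1). Fcgr1, Mertk and Adgre4 did not pass the filter on low counts.

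Cathepsins and lysosomal genes, a list that shares Ctss, Psap and Cd68 with the preceding one, had a median log2 fold change of 0.40. Of 27 members, 2 were called higher and 0 lower, against 0.432% and 0.826% of all genes. At the adjusted p alone 9 were higher and 1 lower, against 1.77% and 1.33%. Their summed level was 3120 to 3289 CPM in CD62L-int and 3837 to 4510 CPM in CD62L-high GMPs, where replicate 1 was the highest. Without CD62L-high GMP replicate 1, 1 member was called higher and the median was 0.29. Of 26 cytokine receptors, Il10ra, the interleukin-10 receptor, was called higher (log2 fold change 1.07, edgeR adjusted p = 0.0186), although at 0.97 it was under 2-fold without CD62L-high GMP replicate 1. Its adjusted p was 0.102, 0.0708 and 0.0552 without CD62L-int GMP replicate 1 or 2 or CD62L-high GMP replicate 2. The median of the receptors was 0.35, and 0.24 without CD62L-high GMP replicate 1. At the adjusted p alone 6 receptors were higher and 2 lower, against 1.77% and 1.33% of all genes. Of 7 NADPH oxidase subunits 0 were called (4 higher at an unadjusted p under 0.05 in edgeR, 0 called by DESeq2), with a median of 0.35. Their median was 0.22 without CD62L-high GMP replicate 1. At the adjusted p alone 1 subunit was higher and 0 lower, against 1.77% and 1.33% of all genes. The share of all genes at that unadjusted p was not taken. Counts at it, here and below, therefore cannot be judged against all genes. Dendritic cell and antigen presentation genes had 0 of 16 members called (6 higher at an unadjusted p under 0.05 in edgeR, 1 called by DESeq2), and 2 were called higher without CD62L-high GMP replicate 1. With all libraries, 2 were higher and 0 lower at the adjusted p alone, against 1.77% and 1.33% of all genes. Their median was 0.58.

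The transcription factors were divided. Of 44 tested, 2 were called higher and 4 lower, against 0.432% and 0.826% of all genes, with a median log2 fold change of 0.20. At the adjusted p alone 5 were higher and 6 lower, against 1.77% and 1.33%. Without CD62L-int GMP replicate 3 only 2 were called lower. Rara, which encodes retinoic acid receptor alpha, was at 7.68, 9.44 and 7.19 CPM in CD62L-int and at 40.8, 20.7 and 24.0 CPM in CD62L-high GMPs, where replicate 1 was the highest. Its log2 fold change was 1.82 (SE 0.26, edgeR adjusted p = 0.002), and 1.47 without that replicate. Irf5, an interferon regulatory factor, was at 20.1, 29.3 and 30.8 CPM and at 90.8, 58.9 and 55.6 CPM (log2 fold change 1.36, SE 0.22, edgeR adjusted p = 0.00371). Again CD62L-high GMP replicate 1 was the highest, and the log2 fold change without it was 1.10.

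Ets1, an ETS family factor, was at 8.69, 4.28 and 11.2 CPM in CD62L-int and at 0.556, 0.223 and 0.268 CPM in CD62L-high GMPs. The CD62L-high libraries were near the lower limit of counting (log2 fold change -4.52, SE 0.50, edgeR adjusted p = 0.000325). Gata2, a factor of stem cells, basophils and mast cells, was at 14.1, 10.9 and 9.97 CPM and at 4.37, 7.22 and 1.54 CPM. Its log2 fold change of -1.43 had an adjusted p of 0.0465 in edgeR, which rose to between 0.0834 and 0.206 when any 1 of the CD62L-int or bulk GMP libraries was left out. Spi1 and Cebpa, which encode the myeloid factors PU.1 and C/EBP alpha, differed by 0.45 and 0.18 on the log2 scale (edgeR adjusted p = 0.0752 and 0.5). Cebpb, which encodes C/EBP beta, was higher by less than 2-fold with no overlap (log2 difference 0.79, edgeR adjusted p = 0.00762). Without CD62L-high GMP replicate 1 the log2 difference of Cebpb was 0.68. Myb and Myc, factors of proliferating progenitors, were lower by less than 2-fold (log2 difference -0.84 and -0.75, edgeR adjusted p = 0.00215 and 0.00455). Spi1, Cebpa, Cebpb, Myb and Myc were named after their values were seen.

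Neutrophil granule genes were taken as a list of the primary granule and a list of later granules. Of 13 primary granule genes, 2 were called lower and 0 higher, against 0.826% and 0.432% of all genes. At the adjusted p alone 6 were lower and 1 higher, against 1.33% and 1.77%, and the median log2 fold change was -0.52. The 2 called genes were Hdc, which is also in the basophil and mast cell list, and Nkg7. Hdc, which encodes histidine decarboxylase, was at 123.0, 108.1 and 97.95 CPM in CD62L-int and at 43.4, 48.2 and 37.9 CPM in CD62L-high GMPs (log2 fold change -1.35, edgeR adjusted p = 0.000147). Nkg7, a protein of cytotoxic and other granules, was at 82.2, 76.1 and 77.7 CPM and at 48.3, 29.8 and 31.4 CPM (log2 fold change -1.11, edgeR adjusted p = 0.00336). Both genes were lower in every CD62L-high library, and Nkg7 was under 2-fold (-0.98) without CD62L-high GMP replicate 2. The proteases Ctsg, Elane, Prtn3 and Ctsc and the peroxidase Mpo were named after their values were seen, and none of them was called. Their log2 differences were -0.52, -0.22, 0.11, 0.70 and -0.18 (edgeR adjusted p = 0.0123, 0.403, 0.735, 0.0045 and 0.416). Elane and Mpo were higher in CD62L-high GMP replicate 1 than in the other CD62L-high libraries, and without it both were lower in CD62L-high GMPs, by less than 2-fold (log2 difference -0.35 and -0.30, edgeR adjusted p = 0.00157 and 0.000103).

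Of 15 secondary and tertiary granule genes, 2 were called higher and 1 lower, against 0.432% and 0.826% of all genes, with a median of 0.13. Pglyrp1, a peptidoglycan recognition protein, was at 17.1, 12.8 and 17.2 CPM in CD62L-int and at 3.42, 1.26 and 3.02 CPM in CD62L-high GMPs, well separated (log2 fold change -2.61, SE 0.37, edgeR adjusted p = 0.00173). Lyz2, lysozyme of neutrophils and monocytes, rose from 138.7 ± 15.9 to 280.7 ± 24.5 CPM (SD, n = 3, log2 fold change 1.02, edgeR adjusted p = 0.00084), and was under 2-fold without CD62L-high GMP replicate 1 (0.95) or CD62L-int GMP replicate 1 (0.93). Chil3, a chitinase-like protein of both lineages, was at 6.53, 12.1 and 15.4 CPM and at 22.8, 30.0 and 42.6 CPM (log2 fold change 1.49, edgeR adjusted p = 0.0133). Chil3 had an adjusted p of 0.0529 and 0.0503 without CD62L-int GMP replicate 1 or 2. Camp, Ngp, Mmp9 and Retnlg, genes of mature neutrophils, did not pass the filter on low counts.

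The sequences upstream of called genes that held without any single library are shown for 3 monocyte and lysosomal genes that rose and for 3 genes that fell, from RefSeq on GRCm38.p6, 250 bases before to 50 after the gene start that RefSeq gives. GENCODE, whose gene positions are used elsewhere here, starts Gfi1 and Tgfbi at other bases of these windows and Pglyrp1 far upstream, at chr7:18871331. Capitals mark matches, on either strand, to AGGAAGT (ETS), TTGCNNAA (C/EBP), 2 GAAA units with any 2 bases between them (interferon regulatory factor, IRF), AGATAA for the GATA family or AAATCA for GFI1. These letters occur in 9.35%, 10.8%, 3.44%, 11.2% and 14% of all 32851 promoters of the table. Counted from the RefSeq start, the IRF match of Ctss lies at -21 and its ETS match, on the reverse strand, at -2. The IRF match of Tgfbi lies at -194, the ETS match of Pld4 at 11, the GFI1 and GATA matches of Cpa3 at -63 and -46, the C/EBP match of Gfi1 at -143 and the GATA match of Pglyrp1 at -30. A match is a description of the letters and not a site. Promoters were found for 84.2% of the genes called higher, 74.3% of those called lower and 68.6% of all genes tested, so no share of called genes is given. The positions are Ctss chr3:95526536-95526835 (plus strand), Tgfbi chr13:56609336-56609635 (plus strand), Pld4 chr12:112760405-112760704 (plus strand), Cpa3 chr3:20242132-20242431 (minus strand), Gfi1 chr5:107725756-107726055 (minus strand), for which the first of 2 listed promoters is shown, and Pglyrp1 chr7:18884440-18884739 (plus strand).
Ctss: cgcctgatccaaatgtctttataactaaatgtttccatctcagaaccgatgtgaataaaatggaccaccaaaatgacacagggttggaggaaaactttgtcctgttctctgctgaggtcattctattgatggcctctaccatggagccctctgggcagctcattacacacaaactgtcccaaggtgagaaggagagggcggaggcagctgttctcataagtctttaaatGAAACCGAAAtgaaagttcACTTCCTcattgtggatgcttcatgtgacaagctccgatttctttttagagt
Tgfbi: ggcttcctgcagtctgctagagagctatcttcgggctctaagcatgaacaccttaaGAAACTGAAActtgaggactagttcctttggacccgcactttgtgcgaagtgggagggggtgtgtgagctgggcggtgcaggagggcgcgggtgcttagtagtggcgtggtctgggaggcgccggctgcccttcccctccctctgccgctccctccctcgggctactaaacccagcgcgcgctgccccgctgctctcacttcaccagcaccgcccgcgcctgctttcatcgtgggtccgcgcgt
Pld4: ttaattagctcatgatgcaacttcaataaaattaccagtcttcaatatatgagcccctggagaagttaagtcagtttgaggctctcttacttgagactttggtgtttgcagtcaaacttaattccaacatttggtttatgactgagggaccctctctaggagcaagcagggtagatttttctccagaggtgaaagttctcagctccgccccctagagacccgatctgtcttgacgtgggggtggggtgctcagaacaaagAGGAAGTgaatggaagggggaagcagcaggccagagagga
Cpa3: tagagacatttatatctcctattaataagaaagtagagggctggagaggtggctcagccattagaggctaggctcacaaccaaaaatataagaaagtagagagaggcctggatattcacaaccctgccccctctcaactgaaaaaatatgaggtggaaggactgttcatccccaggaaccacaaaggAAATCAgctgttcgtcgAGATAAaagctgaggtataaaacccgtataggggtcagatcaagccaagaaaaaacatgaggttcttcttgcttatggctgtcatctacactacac
Gfi1: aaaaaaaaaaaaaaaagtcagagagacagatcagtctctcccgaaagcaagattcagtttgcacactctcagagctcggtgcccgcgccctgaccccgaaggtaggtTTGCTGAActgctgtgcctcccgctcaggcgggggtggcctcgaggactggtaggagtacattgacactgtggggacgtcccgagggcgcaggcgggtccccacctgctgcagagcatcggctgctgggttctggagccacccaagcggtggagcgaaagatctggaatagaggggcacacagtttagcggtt
Pglyrp1: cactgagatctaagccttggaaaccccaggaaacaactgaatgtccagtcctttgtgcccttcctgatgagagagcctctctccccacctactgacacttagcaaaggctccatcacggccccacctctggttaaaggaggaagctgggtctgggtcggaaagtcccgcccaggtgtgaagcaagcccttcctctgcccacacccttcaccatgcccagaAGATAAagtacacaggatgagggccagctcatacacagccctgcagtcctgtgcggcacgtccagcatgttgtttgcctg

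Some basophil and mast cell genes were lower in CD62L-high GMPs. Of 13 tested, 5 were called lower and 0 higher, against 0.826% and 0.432% of all genes, with a median log2 fold change of -1.43. Of these 5, Hdc and Gata2 are counted in other lists as well. Without CD62L-int GMP replicate 2 or 3, 3 were called, and 2 in the 6 CD62L-int and CD62L-high libraries alone. Of the members not called, Csrp3 and Cyp11a1 were at 0 CPM in these 6 libraries and could show no difference. Gzmb, Fcer1a and Il1rl1 were below 3 CPM there. Cpa3, which encodes the mast cell protease carboxypeptidase A3, was at 14.1, 11.2 and 7.13 CPM in CD62L-int and at 0 CPM in all CD62L-high GMPs. With 445 counts against 0 over each group, and a floor of 3 counts over the group, Cpa3 was at least 147-fold lower. It was at 40.2 ± 2.48 CPM in bulk and at 268.5 ± 73.4 CPM in CD62L-neg GMPs (SD, n = 3). The basophil protease Prss34 and Ms4a2, a subunit of the IgE receptor, were below 3 CPM in every CD62L-int library (log2 fold change -3.17 and -2.04, edgeR adjusted p = 0.00762 and 0.0152), and Ms4a2 had an adjusted p of 0.058 and 0.0665 without CD62L-int GMP replicate 2 or 3. The summed level of the list was 172.7 to 220.1 CPM in CD62L-int, 103.6 to 128.3 CPM in CD62L-high and 1337 to 2177 CPM in CD62L-neg GMPs. Of 5 eosinophil genes, with a median of -1.04, Siglecf was called lower (log2 fold change -1.88, edgeR adjusted p = 0.022), with an adjusted p of 0.0959, 0.0659 and 0.0649 without CD62L-int GMP replicate 1, 2 or 3. Epx, whose value is the median, Prg3 and Ear6 were below 3 CPM in all 6 libraries, near the lower limit of counting.

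Most genes of stem and multipotent progenitors had lower levels in CD62L-high GMPs, but few passed the test. Of 25 tested, 4 were called lower and 0 higher, against 0.826% and 0.432% of all genes, and 21 were not called. At the adjusted p alone 6 were lower, against 1.33%. A negative log2 difference was found for 23, and the median was -0.64. Angpt1, a ligand of the Tie2 receptor, was at 12.7, 12.7 and 9.44 CPM in CD62L-int and at 0.397, 2.38 and 1.74 CPM in CD62L-high GMPs (log2 fold change -2.92, SE 0.40, edgeR adjusted p = 0.00136). Adgrg1, also known as GPR56, an adhesion receptor of stem cells, was at 123.4, 98.9 and 98.0 CPM and at 46.0, 37.7 and 39.6 CPM (log2 fold change -1.38, SE 0.13, edgeR adjusted p = 0.000147). Both were lower in all 3 CD62L-high libraries by a wide margin. Cd27, a receptor of multipotent and lymphoid progenitors, fell by 1.81 on the log2 scale (edgeR adjusted p = 0.00336). The summed level of the list was 1425 to 1606 CPM in CD62L-int and 1062 to 1306 CPM in CD62L-high GMPs. Of 9 erythroid genes (median -0.72) Tfr2, transferrin receptor 2, was called lower (-2.97, edgeR adjusted p = 0.0101), and without CD62L-high GMP replicate 1 so were Car2 and Tal1. Gata1 and Gfi1b of that list were near the lower limit of counting. Of 6 megakaryocyte genes (median -0.12) Itga2b, which encodes CD41, was at 7.004, 4.63 and 4.42 CPM in CD62L-int and at 0.556, 0 and 0.134 CPM in CD62L-high GMPs (-4.54, edgeR adjusted p = 0.000709).

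**Figure D3:**
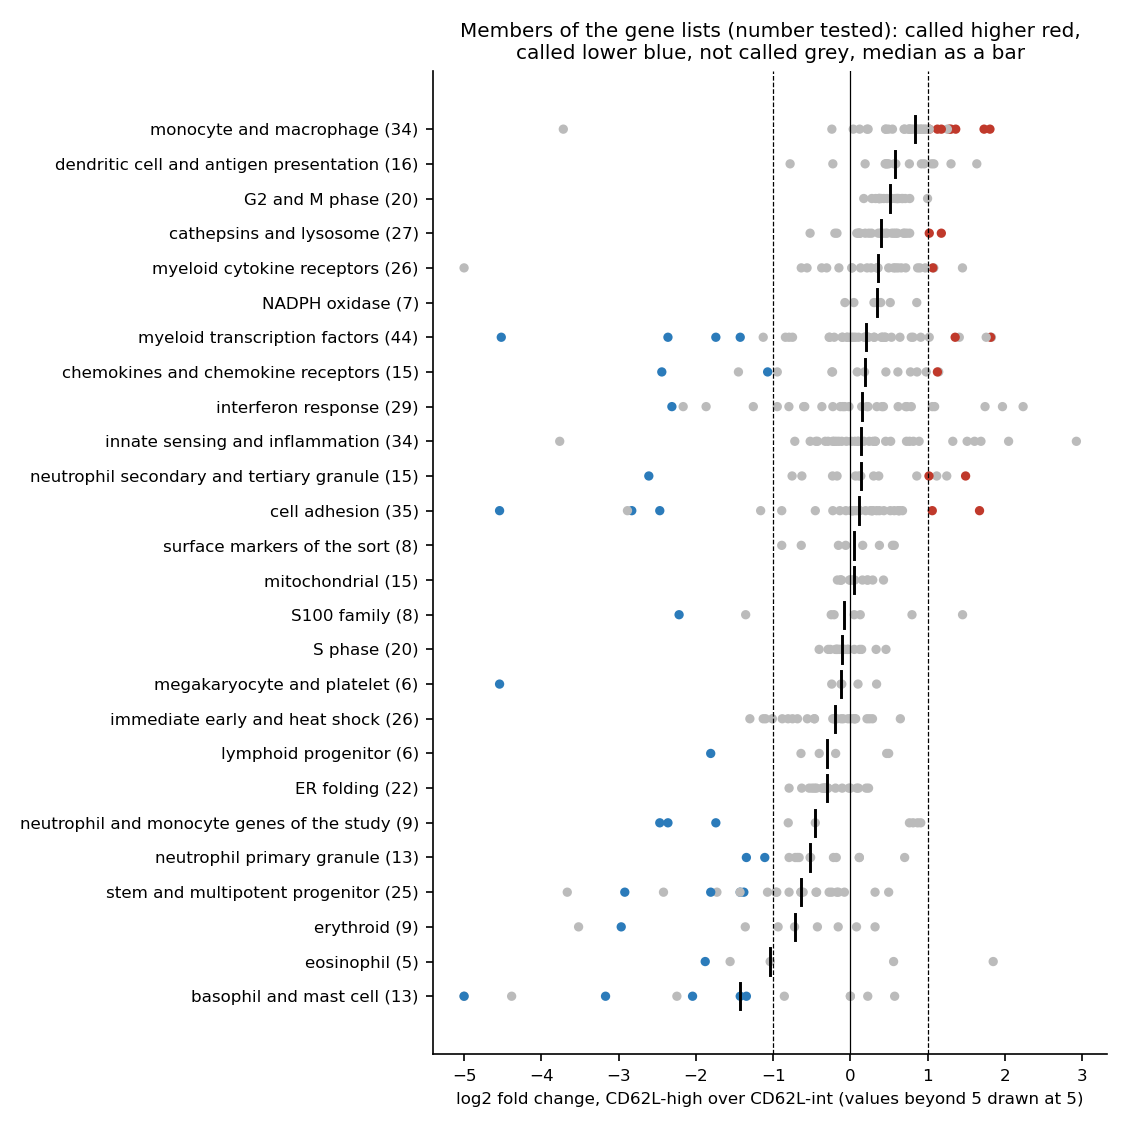
Log2 fold change of CD62L-high over CD62L-int GMPs (x axis, values beyond 5 drawn at 5) for the members of each gene list (rows, with the number tested). Red and blue points are genes called higher and lower, grey points were not called, and the black bar is the median. The monocyte and macrophage list has its median at 0.84, and the basophil and mast cell list at -1.43.

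Among the largest changes outside these groups, Cd63, a tetraspanin of granule and lysosome membranes, was at 57.7, 35.5 and 45.2 CPM in CD62L-int and at 8.98, 4.17 and 6.37 CPM in CD62L-high GMPs. The groups were far apart (log2 fold change -2.83, SE 0.26, edgeR adjusted p = 0.000105). Prom1, which encodes the membrane protein CD133, was at 19.7, 16.1 and 23.2 CPM and at 1.03, 0.446 and 2.88 CPM (log2 fold change -3.72, SE 0.46, edgeR adjusted p = 0.000747). Ablim1, an actin-binding protein, fell by 3.07 on the log2 scale (SE 0.28, edgeR adjusted p = 0.000105). Of the lower genes with the highest levels, Nedd4, a ubiquitin ligase, was at 226.8 ± 17.3 and 92.7 ± 19.7 CPM (SD, n = 3, log2 fold change -1.29, edgeR adjusted p = 0.000365). Vat1 was at 99.0 ± 25.0 and 25.5 ± 6.597 CPM (SD, n = 3, log2 fold change -1.96, edgeR adjusted p = 0.000155).

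Further named genes called lower were Far2, Ikzf2, Lzts2 and Tanc1, with log2 fold changes of -2.10, -1.93, -2.17 and -2.43. S100a8, a subunit of calprotectin and the 1 gene called among 8 S100 genes tested (median -0.08), was at 8.08, 6.47 and 19.8 CPM in CD62L-int and at 1.91, 3.12 and 2.35 CPM in CD62L-high GMPs. Replicate 3 was well above the other CD62L-int libraries, and the adjusted p of S100a8, 0.0155 in edgeR, was 0.141 without it. Bulk GMPs, at 1.34 ± 0.299 CPM (SD, n = 3), were below all 6 libraries.

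Adhesion genes moved in both directions, with 2 of 35 called higher and 3 lower, against 0.432% and 0.826% of all genes. Their median log2 fold change was 0.11. Itgb7, an integrin subunit of gut homing, was at 8.49, 10.1 and 9.57 CPM in CD62L-int and at 37.9, 25.3 and 26.3 CPM in CD62L-high GMPs (log2 fold change 1.67, SE 0.22, edgeR adjusted p = 0.00114). Every CD62L-high library was more than 2-fold above every CD62L-int library. Itga1, a collagen-binding integrin subunit, rose by 1.06 (edgeR adjusted p = 0.00327), which was 0.92 without CD62L-high GMP replicate 1 and 0.99 without CD62L-int GMP replicate 3. The 3 lower members were Vcam1, Cd63 and Itga2b. Of 15 genes of chemokines and their receptors (median 0.18), Cx3cr1 was called higher and Cxcl2 and Ccl4 lower (log2 fold change -2.44 and -1.07, edgeR adjusted p = 0.0138 and 0.0269). Cxcl2 had an adjusted p of 0.0519 without CD62L-int GMP replicate 1, and Ccl4 was under 2-fold without CD62L-high GMP replicate 1 (-0.93). Ccl4 had an adjusted p of 0.112, 0.11 and 0.0549 without CD62L-int GMP replicate 2 or 3 or bulk GMP replicate 3.

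The remaining higher genes of the naming rule included P2rx7, an ATP-gated channel, at 12.1, 12.8 and 11.95 CPM in CD62L-int and 45.5, 29.2 and 25.9 CPM in CD62L-high GMPs (log2 fold change 1.45, edgeR adjusted p = 0.00419). Rnf144b, a ubiquitin ligase, was at 18.7, 14.6 and 18.2 CPM and at 74.8, 33.9 and 42.2 CPM (log2 fold change 1.55, edgeR adjusted p = 0.00363). In both genes CD62L-high GMP replicate 1 was the highest library, and without it the log2 fold change was 1.17 for P2rx7 and 1.15 for Rnf144b. Fcer1g, the common Fc receptor gamma chain, was at 69.0, 84.3 and 78.1 CPM in CD62L-int and at 232.4, 126.3 and 117.5 CPM in CD62L-high GMPs. Its log2 fold change was 1.04 (edgeR adjusted p = 0.0161) and 0.66 without CD62L-high GMP replicate 1, and its adjusted p was 0.103, 0.0505 and 0.0766 without CD62L-int GMP replicate 1, 2 or 3. Ighm, the immunoglobulin mu heavy chain gene, was at 85.2, 69.9 and 80.7 CPM and at 209.8, 146.0 and 132.0 CPM (log2 fold change 1.05, edgeR adjusted p = 0.00337), and this was 0.82 without that replicate and 0.97 without CD62L-int GMP replicate 2.

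Of the other B cell markers, Cd79b was the only 1 of 13 besides Ighm that passed the filter on low counts, and it did not pass the test (log2 difference 0.26, edgeR adjusted p = 0.636). Stxbp6 was called higher with a log2 fold change of 1.31 (edgeR adjusted p = 0.00689). Rbm47, Prdx4, Ptpro and Tmem178 had log2 fold changes of 1.58, 1.33, 1.45 and 1.71. Prdx4 was under 2-fold (0.98) and Tmem178 had an adjusted p of 0.134 without CD62L-high GMP replicate 1, and Rbm47 had an adjusted p of 0.0645 without CD62L-int GMP replicate 1. Prdx4 had an adjusted p of 0.0502 and 0.0754 without CD62L-int GMP replicate 2 or 3. The adjusted p of Tmem178 lay between 0.0681 and 0.155 without any 1 CD62L-int or bulk GMP library. That of Ptpro lay between 0.0642 and 0.182 without CD62L-int GMP replicate 1 or 2, CD62L-high GMP replicate 2 or 3 or any 1 bulk GMP library.

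Genes of the G2 and M phases had higher levels in CD62L-high GMPs, by less than 2-fold each. Of 20 tested, 0 were called by edgeR and 0 by DESeq2, 16 were higher at an unadjusted p under 0.05 and 7 at the adjusted p, against 1.77% of all genes. All 20 log2 differences were positive, the libraries of 13 did not overlap, against 9.98% of all genes, and the median was 0.51. Without CD62L-int GMP replicate 1 or 2 or CD62L-high GMP replicate 2 or 3, 1 was called higher. Kif11, a mitotic kinesin named after its values were seen, was at 109.9, 118.5 and 119.5 CPM in CD62L-int and at 176.2, 189.5 and 191.1 CPM in CD62L-high GMPs (log2 difference 0.68, SE 0.11, edgeR adjusted p = 0.0037). The summed level of the list was 2259, 2619 and 2433 CPM in CD62L-int and 2648, 3708 and 3690 CPM in CD62L-high GMPs. Replicate 1 of the CD62L-high group lay just above the CD62L-int libraries, and without it the median was 0.56. S phase genes had 0 of 20 called by edgeR (1 higher and 1 lower at an unadjusted p under 0.05, 0 called by DESeq2) and a median of -0.10. Their median was -0.01 without CD62L-high GMP replicate 1, whose S phase sum of 3077 CPM was the lowest of the 6 libraries.

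Genes of protein folding in the endoplasmic reticulum (ER) had lower levels in CD62L-high GMPs that did not pass the test. Of 22 tested, 0 were called (13 lower at an unadjusted p under 0.05 in edgeR, 0 called by DESeq2), and the median log2 difference was -0.31. No share of all genes at the unadjusted p is at hand to set beside that count. At the adjusted p alone 0 members were lower, against 1.33% of all genes. The libraries of 13 members did not overlap with CD62L-high GMPs below, against 9.66% of all genes. Their summed level was 9844, 10110 and 10200 CPM in CD62L-int and 5176, 8317 and 8441 CPM in CD62L-high GMPs. The groups did not overlap, and CD62L-high GMP replicate 1, the library with the most ribosomal RNA counts, was by far the lowest. The part of that library's RNA composition in this difference was not tested, and without it the median was -0.18. Calr, which encodes calreticulin and was named after its values were seen, was at 745.8 CPM in that library and at 2057 and 2048 CPM in the other CD62L-high libraries.

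**Figure D4:**
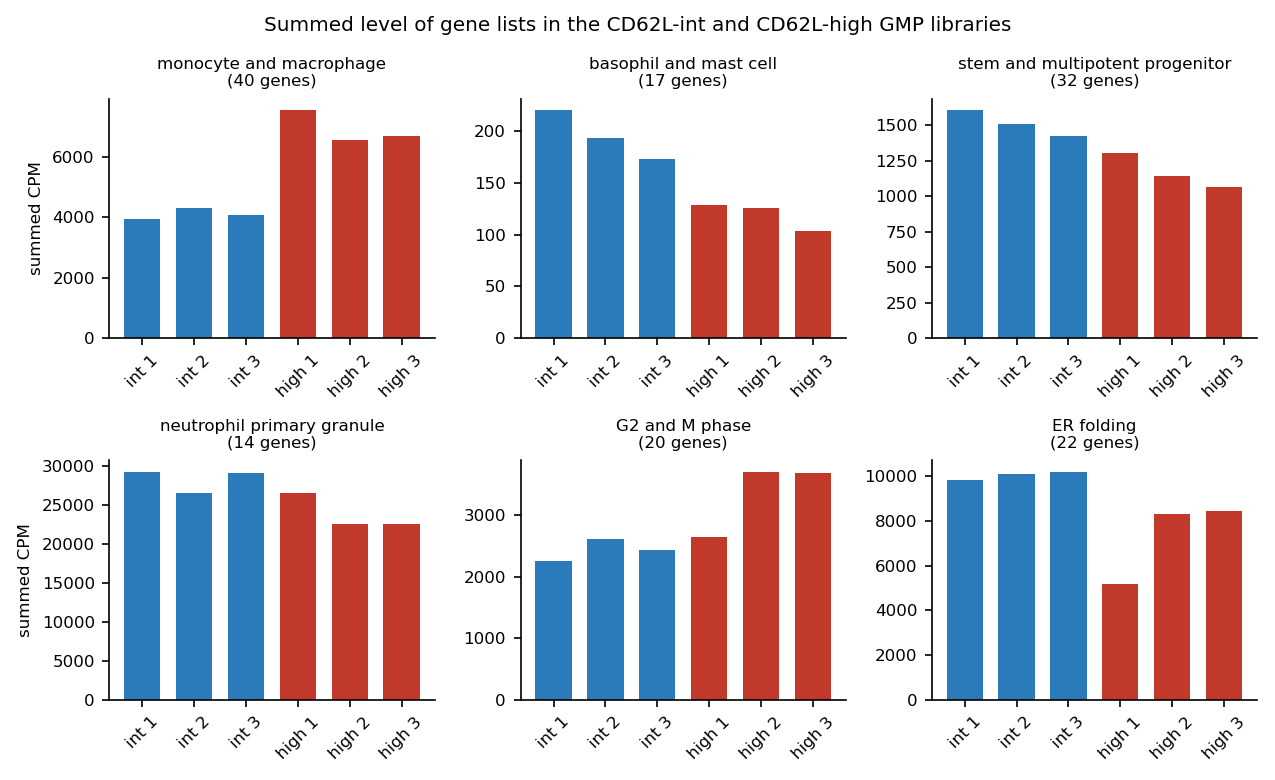
Summed CPM (y axes, from 0) of 6 gene lists in each CD62L-int (blue) and CD62L-high (red) GMP library (x axes). Each bar is 1 library. The monocyte and macrophage sum is 3963 to 4318 CPM in CD62L-int and 6565 to 7552 CPM in CD62L-high GMPs, and in the ER folding panel CD62L-high GMP replicate 1 stands below the rest at 5176 CPM.

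The other lists had few or no calls. Of 29 interferon response genes (median 0.15), Oasl2 was called lower (log2 fold change -2.31, edgeR adjusted p = 0.0328). The adjusted p of Oasl2 was 0.208, 0.0786 and 0.0577 without CD62L-int GMP replicate 1 or 3 or CD62L-high GMP replicate 3, and 0.056 to 0.0577 without any 1 bulk GMP library. Without CD62L-high GMP replicate 1, 2 interferon response genes were called lower and the median was -0.05. Among 26 immediate early and heat shock genes 0 were called by edgeR (1 higher and 9 lower at an unadjusted p under 0.05). DESeq2 called 2 lower, as did edgeR without CD62L-high GMP replicate 1, and the median was -0.20. At the adjusted p alone 1 was higher and 2 lower, against 1.77% and 1.33% of all genes. Among 34 genes of innate sensing 0 were called by edgeR (10 higher and 1 lower at an unadjusted p under 0.05), whereas DESeq2 called 1 higher. Their median was 0.14, and at the adjusted p alone 2 were higher and 0 lower. Of 6 lymphoid progenitor genes (median -0.30) only Cd27 was called. Neither of 2 endothelial and stromal genes was called (0 higher and 1 lower at an unadjusted p under 0.05 in edgeR, 0 by DESeq2), nor any of 15 mitochondrial genes (1 higher and 0 lower at an unadjusted p, 0 by DESeq2).

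Bulk GMPs and CD62L-neg GMPs were set beside these differences. Of the 57 genes called higher, 51 had their bulk mean between the CD62L-int and CD62L-high means. Of the 109 called lower, the bulk mean was between them for 54, above the CD62L-int mean for 54 and below the CD62L-high mean for 1, S100a8. For 103 of the 109, all 3 bulk libraries, like all 3 CD62L-int libraries, lay above all CD62L-high libraries. The called genes were chosen by their gap between CD62L-int and CD62L-high GMPs, so the CD62L-int part was fixed by that choice. Shares over all genes were not taken for the bulk levels, so these counts describe the called genes only. The 9-library fit shares 1 estimate of spread over these groups.

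The first step of CD62L gain, from CD62L-neg to CD62L-int GMPs, had 305 genes called higher (2.24% of 13590) and 303 lower (2.23%) in a fit of 12 libraries. It shares the CD62L-int libraries with the second step, so the CD62L-int level enters both with opposite sign. Of the 109 genes lower at the second step, 60 were called lower at the first, 0 higher and 49 were not called. Of the 57 genes higher at the second step, 39 were called higher at the first, 1 (Tmem71) lower and 17 were not called. Gfi1 differed by -0.78 at the first step (edgeR adjusted p = 0.00225) and by -1.74 at the second, and the difference between its steps did not pass (-0.96, edgeR adjusted p = 0.148). For Cebpe the values were -1.70 and -2.36, and for Vcam1 -1.83 and -2.47, and neither difference passed (edgeR adjusted p = 0.864 and 0.765).

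The monocyte genes of the study's panel changed more at the first step. Irf8 was at 19.0 ± 5.16 CPM in CD62L-neg GMPs, and its log2 change was 4.49 at the first step and 0.81 at the second. The second minus the first step was -3.68 (SE 0.24, edgeR adjusted p = 1.89e-07). The same difference was -2.12 for Csf1r (edgeR adjusted p = 6.59e-06), -2.36 for Klf4 (edgeR adjusted p = 0.00192) and -3.52 for Ly86 (edgeR adjusted p = 4.7e-07). For Ctss, at 0.620 ± 0.579 CPM in CD62L-neg GMPs (SD, n = 3), the log2 changes were 5.46 and 1.18 (difference -4.29, edgeR adjusted p = 0.000205). Of the 34 monocyte and macrophage genes, 23 were called higher and 2 lower at the first step and 8 higher and 0 lower at the second, all in the fit of 12 libraries, where 2.24% and 0.405% of all genes were called higher. The difference between the steps passed with a smaller or more negative second step for 14 of the 34, against 0.478% of all genes, and with the opposite sign for 1.

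In all, 97 genes (0.714% of 13590) differed between the steps at an adjusted p under 0.05, 65 with a smaller or more negative second step and 32 with a larger or less negative one. In 78 of them both steps had the same sign, 16 were lowest in CD62L-int GMPs and 3 (Luzp1, Atf3 and Rmdn3) were highest there. The 2 genes that moved in opposite directions with both steps at the adjusted p were Emilin2 and Tmem71, each lower at the first step and higher at the second. These 5 were named after their values were seen. Itgb7 was among the genes lowest in CD62L-int GMPs, with log2 changes of -0.39 (edgeR adjusted p = 0.391) and 1.67 and a difference of 2.07 (SE 0.41, edgeR adjusted p = 0.0173). Prom1 differed more at the second step, with changes of -1.04 (edgeR adjusted p = 0.0572) and -3.72 and a difference of -2.67 (edgeR adjusted p = 0.0402). Gata2 changed more at the first, with -4.48 and -1.43 (difference 3.05, edgeR adjusted p = 0.0103). The number of such genes was 164 without CD62L-high GMP replicate 1, and 61, 45 and 52 without CD62L-int GMP replicates 1, 2 and 3.

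**Figure D5:**
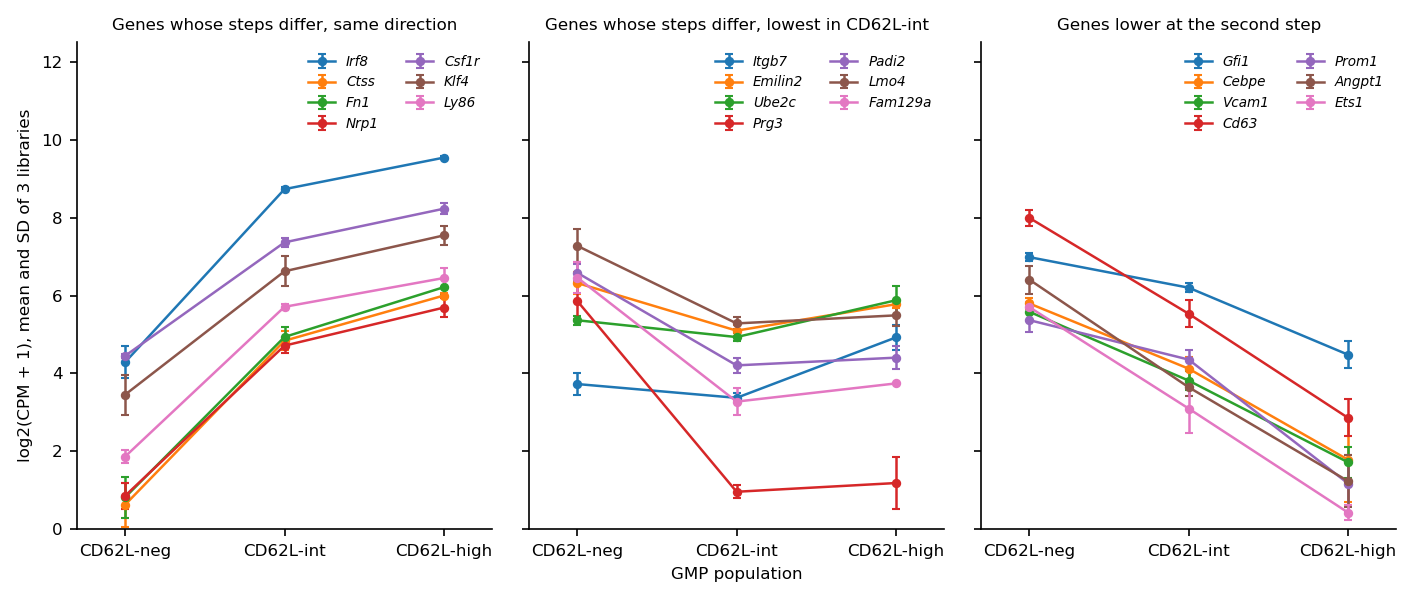
Log2(CPM + 1), mean and SD of 3 libraries (y axis), in CD62L-neg, CD62L-int and CD62L-high GMPs (x axis) for 3 sets of 7 genes. The left set, with Irf8, climbs steeply at the first step and less at the second, the middle set is lowest in CD62L-int GMPs, and the right set, with Gfi1, descends at both.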

How the data were processed

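RNA was sequenced from 21 libraries of 7 sorted progenitor populations, 3 each, and 9 CD62L-int, CD62L-high and bulk GMP libraries entered the fit. According to the study and the submitters' processing notes, reads were trimmed with Trim Galore, mapped to mm10 with HISAT2 and counted with HTSeq. Versions, annotation and strand setting are not given in the sources used here. The library kit is named differently in the labels (SMARTer Stranded) and in the study's methods (SMART-Seq v.4). The authors deposited raw read counts for 47643 Ensembl genes, of which 47224 matched a gene symbol by their identifier.

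Counts were filtered with filterByExpr, scaled with TMM and tested with edgeR 4.0.16 (R 4.3.3) by the quasi-likelihood F test, high minus int. For a call, p adjusted by Benjamini-Hochberg had to be under 0.05 and the change larger than 2-fold, as in the study, which used DESeq2 (here 1.42.0, an alternative). The steps were compared in 1 fit of 12 libraries that added CD62L-neg GMPs, and CPM of CD62L-neg GMPs come from it. The 6 libraries held 11360760 to 15263573 counts. Counting error limits genes of few counts.

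Libraries of the same replicate number did not deviate together: the correlation of deviations between CD62L-int and CD62L-high GMPs was 0.0115, 0.0405 and -0.0204, so the numbers were not used as pairs. No 2 libraries of a group were alike within sampling noise (lowest chi-square per degree of freedom 9.93).

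The gene lists and tests were chosen with earlier results of these data known. Named genes were all genes of the study's panel and of the sort markers, the 15 called genes with the largest change per direction (mean CPM of at least 10 in the higher group, no overlap, no gene-model names), up to 5 called members per list and direction, and the 5 called genes per direction with the highest CPM. Some genes that the rule covers are not reported here. Other genes are said to be named after their values were seen. The scripts were tested on simulated data. Alternatives were other size factors, filters, library sets, a replicate block, DESeq2, a test against 2-fold, and leaving out each library.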

Additional observations from a re-analysis of the deposited data

Results flagged for a closer look

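The change from CD62L-neg to CD62L-int GMPs and the change from CD62L-int to CD62L-high GMPs differed, by a test of the difference itself in edgeR, for 97 genes. Among the genes that the study singles out, the second minus the first step was -3.68 on the log2 scale for Irf8, -3.52 for Ly86, -2.36 for Klf4 and -2.12 for Csf1r, all with the larger change at the first step. The CD62L-int libraries enter both steps.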

How the results depend on the processing

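Against 57 genes called higher and 109 lower, DESeq2 called 105 and 190, no filter on low counts 92 and 172, the 6 CD62L-int and CD62L-high libraries alone 30 and 41, a test against a 2-fold change 1 and 17, and the adjusted p alone 234 and 175. Leaving out 1 library at a time gave 36 (without CD62L-int GMP replicate 1) to 84 (without CD62L-high GMP replicate 3) higher and 53 (without CD62L-int GMP replicate 1) to 132 (without CD62L-high GMP replicate 1) lower. Called list members, 16 higher and 22 lower, ranged from 13 to 22 and from 15 to 27, and the 6 libraries alone gave 12 lower. At the first step, 255 to 327 genes were called higher and 225 to 405 lower. Genes whose steps differ, 97, ranged from 45 (without CD62L-int GMP replicate 2) to 164 (without CD62L-high GMP replicate 1), with 62 in the 9 CD62L-neg, CD62L-int and CD62L-high libraries alone. The cause was not tested.

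With the replicate number as a block, 49 genes were called higher and 79 lower, 293 and 296 at the first step, and 80 differed between the steps. Same-numbered libraries correlated by at most 0.0594, which gave no sign of pairs but cannot exclude a shared mouse or sort.

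Of 54 named called genes, 13 stayed called in every setting: Ablim1, Ahnak, Angpt1, Cd63, Cpa3, Ets1, Gfi1, Itga2b, Lzts2, Pglyrp1, Prom1, Vat1 and Vcam1. Of the other 41, 24 lost the call in a setting besides the test against 2-fold, and 9 without CD62L-high GMP replicate 1. Of 1289 values of named genes over all settings, 1151 kept direction and side of the threshold, 128 became weaker and 9 stronger. The remaining 1 reversed: Ly6c1, not called, was at 0.38 on the log2 scale, at -0.0628 without CD62L-int GMP replicate 3 (edgeR adjusted p = 0.862 and 0.986) and at up to 1.1792 without CD62L-int GMP replicate 2. Changes of genes below a few CPM are limited by depth.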

Other observations

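Xrcc5, which encodes the Ku80 subunit of the end-joining repair complex, had 112 counts over the CD62L-int libraries and 0 over the CD62L-high libraries, at least 36.9-fold lower with a floor of 3 counts over the group. In the fit of 12 libraries its mean was 8.40 CPM in CD62L-neg, 2.73 CPM in CD62L-int and 0 CPM in CD62L-high GMPs. Whether the counts on this gene model cover all Xrcc5 RNA was not tested. Xrcc5 was named after its values were seen.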
